A study of Glycine max with 12 samples.

Results

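The black saddle of the immature seed coat was compared with the yellow region of the same coats in the soybean line Clark 8, which carries the alleles i-k and K1. The comparison took the RNA-seq libraries whose names pair K1 with the black saddle or with the yellow sectors, which were 6 of the 12 libraries of the series, 3 for each region. Each region had 1 library from each of 3 biological repeats. The other 6 libraries came from the black saddle and the yellow region of Clark 18a, which carries i-i and k1, with 3 libraries each. The lines differ at both loci. All plants were grown in a greenhouse, and whole seeds weighed 100 to 200 mg when harvested. The coats were dissected by the colour that each region would later take and lyophilized, and poly(A) RNA was sequenced. The number of plants or seeds behind a library is not stated, and the p-values speak only of the spread among these libraries, some of which may be technical.

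Flavonoid pigments are made from a chalcone that chalcone synthase builds from coumaroyl-CoA and malonyl-CoA. Later enzymes turn this chalcone into the anthocyanins and proanthocyanidins that colour a dark seed coat. In soybean the I locus holds clustered chalcone synthase copies, and its dominant alleles keep the coat yellow because small RNAs made from the cluster silence the family. Different I alleles limit the silencing to different zones, which gives a pigmented hilum or a saddle. Argonaute proteins carry small RNAs to their target transcripts, and the series title names Argonaute5 (AGO5) as the gene at K1.

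The 6 libraries held 83123127 to 192296346 hits each, recovered from the RPKM values (hits relative to transcript length and library total). The repeat 3 pair was the shallowest, and yellow repeat 1 the deepest. Repeat 3 stood apart in both regions: libraries of 1 region correlated across the 30775 tested genes at 0.977 in black and 0.978 in yellow for repeats 1 and 2, but at 0.936 to 0.946 in black and 0.938 to 0.954 in yellow for the pairs with repeat 3. Without repeat 3 of every group, 3210 of the 4266 genes called below were called again. The black minus yellow differences of repeats 1 and 2 correlated across genes at 0.912, and those of repeat 3 with the others at 0.840 and 0.825, where genes are not independent replicates. Neither the table nor the reference list used here pairs Glyma identifiers with gene names, so the labelled tissue was not checked against marker genes. The names AGO5 and chalcone synthase come from recalled literature, with coding length as their only check here.

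Most of the chalcone synthase family rose in the black saddle. Of the 14 listed members 13 could be tested, and 12 of these rose in black in limma, against a background of 7.51% of all tested genes called higher. The median log2 difference of the 13 was 1.95, beside -0.07 over all tested genes. Among the 12 are the 8 copies on chromosome 8, some with nearly equal hits. The count and the median, which is the value of the copy Glyma.08G110300, thus do not rest on separate measurements. The most abundant member, Glyma.01G228700, had 310, 325 and 268 RPKM in the black libraries of repeats 1, 2 and 3, against 41.1, 50.9 and 16.6 RPKM in the yellow libraries. Glyma.11G011500 had 188, 195 and 176 RPKM in black and 26.2, 32.2 and 10.95 RPKM in yellow. For neither gene did the regions overlap, and for both the lowest yellow value was that of repeat 3. Their log2 differences in repeats 1, 2 and 3 were nearly alike, at 2.88, 2.65 and 3.93 against 2.79, 2.56 and 3.89. Whether these genes share hits was not tested, so their sum may count a hit more than once. Summed per library, these genes reached 497, 521 and 444 RPKM in black, against 67.3, 83.1 and 27.6 RPKM in yellow, a ratio of means of 8.21 (limma log2 difference 3.15, SE 0.399, adjusted p = 0.000407).

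The 8 copies on chromosome 8 also rose. Their summed level was 159.9, 161.1 and 167 RPKM in black, against 44.1, 40.6 and 26.04 RPKM in yellow, a ratio of means of 4.41 (limma log2 difference 2.14, SE 0.229, adjusted p = 0.000137). The black libraries lay close together and far above every yellow library. The sum may count a hit more than once, since some copies had nearly equal hits. Glyma.08G109300, Glyma.08G110300 and Glyma.08G110900 had hit counts within 0.506% of one another in each of the 6 libraries, for example 4331, 4340 and 4344 hits in black repeat 1. Glyma.08G110500 and Glyma.08G110700 both had 4227 hits in that library and differed by at most 7 hits in any. The other 3, Glyma.08G109200, Glyma.08G109400 and Glyma.08G109500, had 4159, 5042 and 4585 hits in black repeat 1. Whether copies share hits was not tested, and they are not treated as separate measurements. Their mean, 20.3 ± 0.473 RPKM in black and 4.61 ± 1.20 RPKM in yellow (SD, n = 3 each), is a second description of the same values.

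The chromosome 8 copies held a smaller share of chalcone synthase RPKM in black than in yellow. By the sum, the share was 23.9%, 23.3% and 26.9% in the black libraries of repeats 1 to 3, against 38.6%, 32.0% and 47.0% in the yellow libraries. With the mean of the copies in place of their sum, it was 3.78%, 3.66% and 4.40% in black and 7.29%, 5.56% and 9.97% in yellow. The regions did not overlap by either measure. The exact two-sided permutation test of the first share gave p = 0.1, the smallest that 3 libraries against 3 allow, so this difference cannot pass 0.05.

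The remaining members were low. Glyma.05G153200 had 7.58, 6.47 and 6.80 RPKM in black and 1.97, 2.02 and 1.37 RPKM in yellow, a log2 difference of 1.52 (SE 0.131, limma adjusted p = 3.8e-05). Glyma.01G091400 had 1.92, 1.71 and 1.74 RPKM in black and 0.417, 0.563 and 0.284 RPKM in yellow, a log2 difference of 0.98 (SE 0.198, limma adjusted p = 0.0075). Both were separated between the regions in each repeat. Glyma.09G075200, at 1.4999, 1.34 and 0.852 RPKM in black and 0.329, 0.448 and 0.137 RPKM in yellow, did not pass (limma adjusted p = 0.0708), but did with the biological repeat as a block (adjusted p = 0.00225). Glyma.02G130400 fell under the filter on low values, with 37, 42 and 31 hits in black and 10, 12 and 1 hits in yellow.

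**Figure D1:**
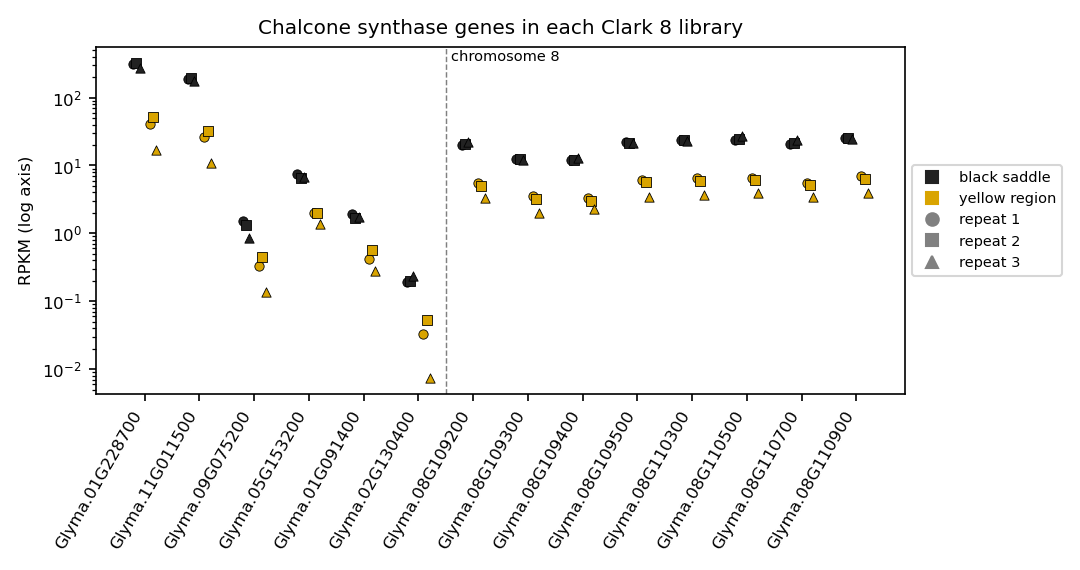
RPKM (log axis) of the 14 chalcone synthase genes in the 3 black saddle and 3 yellow region libraries of Clark 8, 1 point per library, marker shape by repeat. The black libraries lie above the yellow libraries for every gene, the Glyma.01G228700 and Glyma.11G011500 levels are the highest, and the means of the 8 chromosome 8 copies run from 12.4 to 25.2 RPKM in black and from 2.88 to 5.82 RPKM in yellow.

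AGO5 (Glyma.11G190900) was lower in black in repeats 1 and 2 and about level in repeat 3. Its level was 3.12, 3.48 and 5.20 RPKM in black and 8.58, 9.59 and 4.68 RPKM in yellow, from at least 1363 hits in black and 1402 hits in yellow. The regions overlapped through repeat 3, where the black library was the higher of the pair. The limma difference of -0.78 (SE 0.266) did not pass (adjusted p = 0.0805). It passed in 5 of 21 alternative settings. In limma these were array weights (-1.16, adjusted p = 0.000166) and the fit without repeat 3 of every group (-1.23, adjusted p = 0.00121). The others were the repeat as a block over all 12 libraries (adjusted p = 0.0475), voom with the block (adjusted p = 0.0290) and the fit without yellow repeat 3 (adjusted p = 0.0212). With the block in the 6 Clark 8 libraries alone it did not pass (adjusted p = 0.105). Both AGO5 transcript models encode 890 amino acids, and in a limma fit over all models they gave -0.78 (SE 0.262, adjusted p = 0.0713) and -0.79 (SE 0.261, adjusted p = 0.0657). These models may share hits, so they are not separate measurements.

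The largest rises were of 2 genes that were abundant in black and low in yellow. Glyma.09G043500, which codes for 156 amino acids, had 144, 233 and 359 RPKM in black, against 0.476, 5.79 and 1.44 RPKM in yellow. It spread widely within each region, and its order of repeats was not the same in both. Glyma.09G084200, which codes for 229 amino acids, had 95.1, 67.4 and 144 RPKM in black, against 0.0754, 0.497 and 0.255 RPKM in yellow. The yellow values rest on 10, 50 and 15 hits. Their log2 differences were 6.31 (SE 0.567, adjusted p = 4.69e-05) and 6.28 (SE 0.347, adjusted p = 4.52e-06) in limma, and both passed under each of 21 alternative settings.

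Of the falls, Glyma.09G198900 (186 amino acids) had 6.88, 3.32 and 1.62 RPKM in black, against 191, 134 and 118 RPKM in yellow. Glyma.17G030100 (157 amino acids) had 1.254, 0.906 and 0.611 RPKM in black, against 54.8, 62.8 and 36.8 RPKM in yellow. In both, the repeat 3 library was the lowest of its region, on either side. Their limma differences were -5.02 (SE 0.550, adjusted p = 0.00016) and -4.75 (SE 0.244, adjusted p = 3.03e-06), and these also passed under each of the 21 settings. What these 4 genes encode is not annotated in the sources used here.

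**Figure D2:**
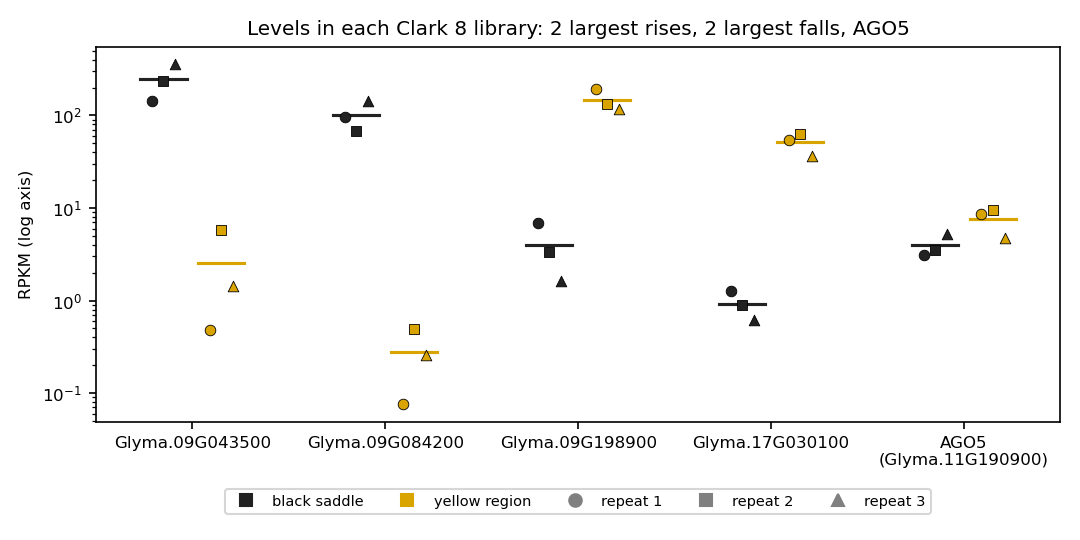
RPKM (log axis) of the 2 genes with the largest rise, the 2 with the largest fall and AGO5 in each Clark 8 library; points are libraries, marker shape is the repeat and lines are region means. The regions are far apart for the first 4 genes and overlap for AGO5, whose repeat 3 points lie at 5.20 RPKM in black and 4.68 RPKM in yellow.

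Across all tested genes, limma without a term for the biological repeat called 4266 (13.9%), with 2311 higher (7.51%) and 1955 lower in black (6.35%). This fit leaves out the pairing by repeat. With the repeat as a block, 11431 genes passed, and 43.0% of these were higher in black. The count of 4266 became 2804 without black repeat 1, 2787 without black repeat 2 and 2549 without yellow repeat 2, where 1640 were higher and 909 lower. Because the regions come from bulk tissue, fewer cells of a type and less RNA per cell cannot be told apart. Rises were larger than falls. The median log2 difference was 1.13 among the genes called higher and -0.72 among those called lower. Of the called genes, 1348 were at least 2-fold higher and 506 at least 2-fold lower, and at 8-fold the counts were 86 and 12. The fold is on the log2(RPKM + 1) scale, which understates it for low genes. With voom on the recovered hits, chosen after the data were examined and with a much smaller offset, 1712 were called at least 2-fold higher and 981 at least 2-fold lower.

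The balance of higher and lower calls moved with several choices. Higher calls made up 54.2% of the 4266, against 63.2% with median-of-ratios scaling (2572 higher, 1499 lower) and 43.4% with array weights (4949 higher, 6460 lower). With the biological repeat as a block, 11431 genes passed (37.1%), 4916 higher (16%) and 6515 lower in black (21.2%), and 4265 of the 4266 genes were among them. Every pair of libraries moved the same way in 70.4% of tested genes, with 8650 genes higher in all 3 pairs and 13024 lower, on a scale where the median of all tested genes was -0.07 and not 0. No library of one region overlapped the other for 4503 genes higher in black (14.6%) and 6441 genes lower (20.9%). With the block the counts past 2-fold were 1521 higher and 626 lower.

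Genes at a high level in one region and near 0 in the other were mostly black saddle genes. A mean of at least 5 RPKM in one region with every library of the other under 0.5 RPKM was met by 81 genes in black, 79 of them called, and by 6 genes in yellow, all called. None of the genes in either set had 0 hits in all 3 libraries of the low region. Of the 81 black genes, 56 had more than 3 hits in each yellow library, and their yellow signal was low rather than unmeasured. These genes were picked by the difference itself, so their number is a description.

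**Figure D3:**
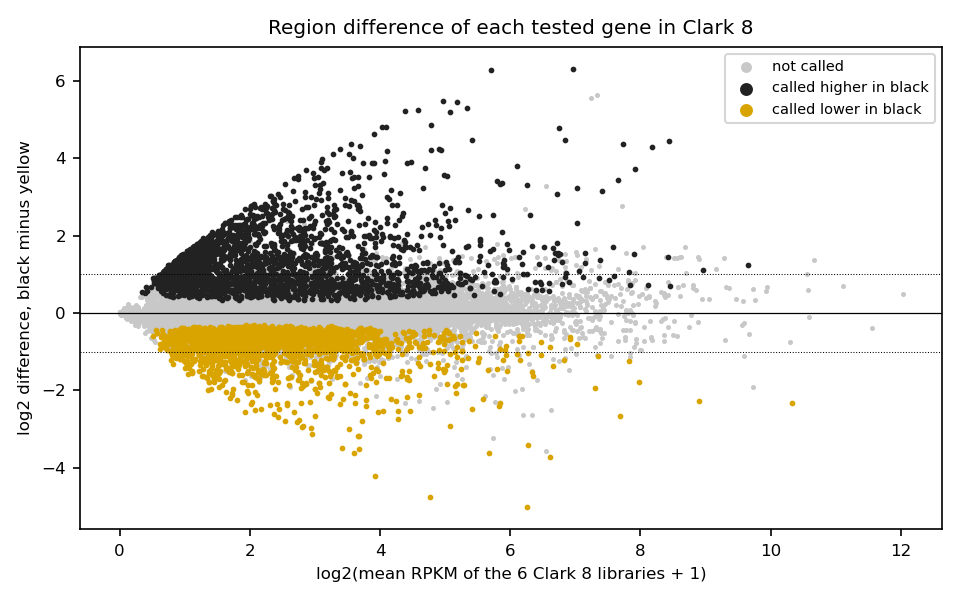
Log2 difference (black minus yellow) against the log2 mean level of the 6 Clark 8 libraries for the 30775 tested genes, with called genes in colour and dotted lines at a 2-fold difference. Rises reach 6.31 and falls -5.02, and more genes lie above the upper dotted line than below the lower one.

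The called genes made up a modest share of the RPKM summed over 1 model per gene. These models held 56.6% to 58.9% of the hits in the 6 Clark 8 libraries. Genes called higher held 10.1%, 9.58% and 11.02% of that sum in the black libraries of repeats 1 to 3, against 3.61%, 3.799% and 3.78% in the yellow libraries. Genes called lower held 2.72%, 2.58% and 2.72% in black, against 6.69%, 7.33% and 6.43% in yellow. Most of the abundant transcripts were common to both regions, with 64 genes shared by the 100 most abundant of each. Of the 100 most abundant genes in black, 15 were called higher and 1 lower, and of the 100 in yellow, 3 were called higher and 6 lower. The share of genes called was 17.4% below a mean of 2 RPKM and 11.2% from 10 to 50 RPKM, and higher calls outnumbered lower calls in every level class but that from 2 to 10 RPKM, where 970 genes were called higher and 1122 lower.

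Genes with a long coding sequence tended to lie lower in black. Of the 3204 tested genes with 2400 or more coding bases, the class that holds AGO5, 14.1% were called lower and 4.34% higher. Of the 1951 genes under 300 coding bases, 3.18% were called lower and 7.69% higher, and the share called lower was 2.97%, 4.81% and 7.86% in the classes between. Chalcone synthases, with 1167 or 1170 coding bases in full, fall in the class from 600 to under 1200 bases, where 8.80% were called higher. Genes called lower had a median of 1515 coding bases and those called higher 963, beside 1068 over all tested genes. The share with several transcript models was 44.4% among genes called lower and 30.3% among those called higher, beside 37.8% over all tested genes.

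The trend with coding length appeared in each repeat and at each level of expression. The median log2 difference of genes with 2400 or more coding bases was -0.25, -0.30 and -0.19 in repeats 1, 2 and 3, and that of genes under 300 bases was 0.03, 0.08 and -0.00. Longest minus shortest classes (2400 and over against under 600 bases) gave -0.27, -0.39 and -0.17. Between libraries of the same region this quantity ran from -0.11 to 0.16, without regard to sign nearly as large as the smallest of the region values. In Clark 18a, whose libraries are separate, it was -0.21, -0.30 and -0.28. Within mean levels from 2 to 10 RPKM, 14.8% of the longest class were called lower against 3.11% of the shortest, and the longest class also had the highest share called lower in each of the other 3 level classes. At 50 RPKM and over the longest class held only 30 genes. Under 2 RPKM the longest class was also called higher more often than the shortest, at 9.88% against 6.75%. With 3 pairs, an exact sign-flip test cannot go below p = 0.25, so the trend was not tested. With the block, 45.1% of the longest class and 13.0% of the shortest were called lower.

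**Figure D4:**
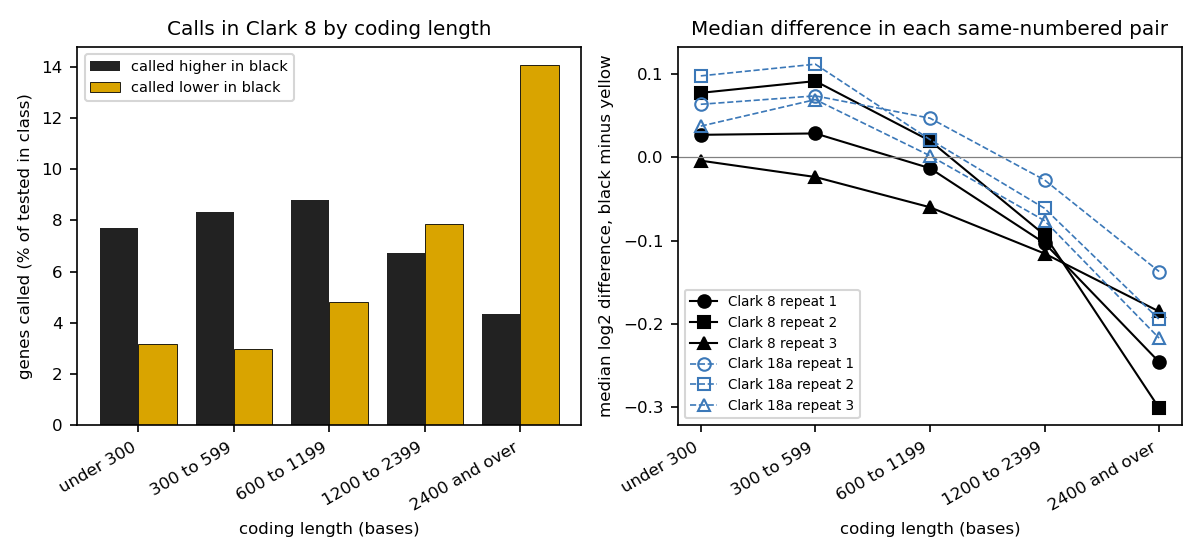
Left, the percentage of tested genes in each class of coding length (bases) that was called higher or lower in the black saddle of Clark 8; right, the median log2 difference (black minus yellow) of each class in the same-numbered pairs of Clark 8 (solid) and Clark 18a (dashed). The share called lower is 14.1% in the longest class and 3.18% in the shortest, and the medians are lowest for the longest class in all 6 pairs.

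Called genes were spread over all 20 chromosomes. The share called ran from 11.97% on chromosome 15 to 14.9% on chromosome 10, close to the 13.9% over all tested genes. Among 30559 pairs of neighbouring tested genes, in the order of their identifiers, 699 pairs were both called. Of these, 69.7% had the same direction, 271 both higher and 216 both lower, where 54.2% of all called genes were higher. The agreement that these shares alone would give was not worked out. Of the 30 runs of 3 or more consecutive genes called higher, the longest had 6 genes, on chromosome 3, and 22 such runs were called lower. The densest stretches, singled out after the values were seen, lay on chromosomes 8 and 16, where 16 of 50 consecutive tested genes were called higher. In the chromosome 8 stretch, 8 of the 16 were the chalcone synthase copies. In the chromosome 16 stretch, 11 of the 16 lay within 25% of a common level in every library, with means from 1.504 to 1.75 RPKM in black and from 0.0934 to 0.106 RPKM in yellow and coding lengths from 2079 to 2799 bases. Whether these 11 share hits was not tested.

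Transcript models of a gene gave nearly the same difference, but models of a gene may share hits. Whether they do was not tested, so their likeness is not a separate measurement. Over the 11675 genes with at least 2 tested models, the difference between the highest and the lowest model had a median of 0.01 on the log2 scale, and it reached 1 in 2 genes. In 1510 of the 1776 genes with a called model, all tested models were called in the same direction. The AGO5 models measured 3.12 and 3.37 RPKM in black repeat 1 and 8.58 and 9.34 RPKM in yellow repeat 1.

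Genes higher in the black saddle of Clark 8 had differences of similar size in Clark 18a. Their median log2 difference was 1.13 in Clark 8 and 1.13 in Clark 18a, although they had been chosen in Clark 8. Of these genes, 85.8% were also called higher in Clark 18a, where 15% of all tested genes were called in either direction. The background share by direction in Clark 18a is not given here. Both contrasts share 1 estimate of the spread per gene, so calls in the lines are not independent. For genes lower in black the median was -0.72 in Clark 8 and -0.59 in Clark 18a, and 57.7% were called lower in both. For falls the gap between the lines was wider in the larger size classes, up to a log2 difference of 4. These classes were small, with 9 falls from 3 to 4 and 3 falls from 4 up, beside 59 and 27 rises. The 62 genes lower by 2 to 3 on the log2 scale in Clark 8 had medians of -2.35 in Clark 8 and -1.44 in Clark 18a, whereas the 258 genes higher by as much had medians of 2.32 and 2.38. Both large falls named above followed this, with -5.02 in Clark 8 and -2.89 in Clark 18a for Glyma.09G198900, and -4.75 and -2.89 for Glyma.17G030100. Neither interaction passed in limma (adjusted p = 1 and 0.357). The lists were selected by their size in Clark 8, which favours smaller values in any other sample, and the contrast between rises and falls was not tested.

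**Figure D5:**
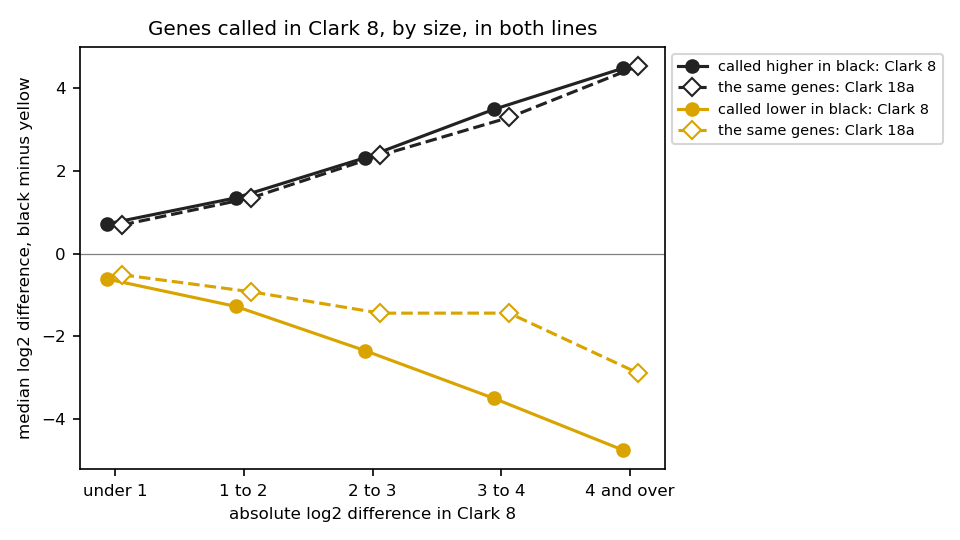
Median log2 difference (black minus yellow) of the genes called in Clark 8, grouped by the absolute size of the Clark 8 difference, in Clark 8 (filled) and in Clark 18a (open). For genes called higher the lines lie together, with 2.32 and 2.38 in the class from 2 to 3, while for genes called lower the Clark 18a medians are nearer to 0, with -2.35 in Clark 8 and -1.44 in Clark 18a in that class.

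The test of the difference between the lines passed for 5 genes in limma, named here after their values were seen (0.0162% of those tested), and 1 passed with the block (0.00325%). For 2 of the 5 the region difference was a rise in Clark 8. Glyma.08G109400, a chromosome 8 chalcone synthase copy, had 12.1, 12.1 and 13.1 RPKM in black and 3.31, 3.03 and 2.29 RPKM in yellow of Clark 8, while Clark 18a had means of 2.57 RPKM in black and 2.61 RPKM in yellow. Glyma.11G073700 had 17.2, 17.9 and 19.3 RPKM in black and 2.80, 3.03 and 2.28 RPKM in yellow of Clark 8, beside means of 2.66 RPKM in black and 1.07 RPKM in yellow of Clark 18a. The other 3 were seen mainly in the yellow region of Clark 8. Glyma.10G002200 had 0.121, 0.0760 and 0.0340 RPKM in black and 7.17, 5.95 and 3.44 RPKM in yellow of Clark 8, against at most 0.252 RPKM in any Clark 18a library. Glyma.02G002100, which like it encodes 150 amino acids, had at most 0.0531 RPKM in black and 2.68, 2.10 and 1.55 RPKM in yellow of Clark 8, against at most 0.0947 RPKM in Clark 18a. The yellow levels of both fell from repeat 1 to repeat 3, and whether these genes share hits was not tested. Glyma.03G074000 averaged 0.886 RPKM in black and 8.97 RPKM in yellow of Clark 8, against 1.40 RPKM in black and 0.576 RPKM in yellow of Clark 18a. In Clark 18a the 8 chromosome 8 copies summed to 27.9, 39.5 and 39.3 RPKM in black and 20.2, 23.0 and 31.4 RPKM in yellow. Against Clark 8 this gave an interaction of 1.64 (SE 0.324) that did not pass (limma adjusted p = 0.481, and 0.153 with the block).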

How the data were processed

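RNA-seq libraries were aligned with Bowtie 1, per the submitters' processing notes. Build, annotation release, treatment of multiple hits and strandedness: not given in the sources used here. In the table deposited by the authors were RPKM values for 88647 transcript models (56044 genes), beside each model's coding and cDNA length. Each RPKM times its cDNA length was a whole multiple of 1 hit (100% of values within 0.05), and the library total used for scaling equalled the hits summed over all models, so the values are relative to hits counted over models, not to reads.

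The model of longest cDNA stood for each gene. Genes with at least 1 RPKM in at least 3 of 12 libraries were tested on log2(RPKM + 1) with limma 3.58.1 in R 4.3.3: 1 mean per group, an intensity trend, a spread shared by all 12 libraries, Benjamini-Hochberg adjustment over all 30775 genes, and calls at an adjusted p under 0.05, two-sided. RPKM is not a count, so no count model was the main test. Only the main fit was tested on simulated data, with independent noise and no repeat effect. That test covers neither the pairing nor the alternative fits. The deviations of each library from the mean of its region, not the libraries themselves, were correlated across genes between black and yellow. They gave 0.592 to 0.745 for same-numbered libraries and -0.608 to 0.0768 for the others, so same-numbered libraries are taken as paired by biological repeat. Deviations sum to 0 within a region and repeat 3 stood apart in both regions, so these values are not independent of one another. The fit with the repeat as a block is an alternative. Sums over chalcone synthase genes were added as further lines of the same fit. Named genes were AGO5, the chalcone synthases and the 2 largest rises and falls called, with the same direction in all 3 pairs and a mean of at least 5 RPKM in the higher region; the rule allowed more of them, but without gene names only these are given. Members and lists were chosen with earlier results of these data known. The planned lists by product name could not be made, since 0 lines of the reference table (Glycine_max_v4.0) carry a Glyma identifier. No sequence is shown, as none was used here. Python 3.11.15, pandas 2.3.3 and matplotlib 3.10.9 were used for summaries and plots.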

Additional observations from a re-analysis of the deposited data

Results flagged for a closer look

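For 5 genes limma's interaction test passed, so that the change between regions was not alike in both lines (Clark 8 difference minus Clark 18a difference, on the log2 scale). It was -2.98 for Glyma.03G074000 (SE 0.318, adjusted p = 0.0286), with a fall in black in Clark 8 and no passing difference in Clark 18a. It was -2.49 for Glyma.10G002200 (SE 0.277, adjusted p = 0.0286) and -1.56 for Glyma.02G002100 (SE 0.198, adjusted p = 0.0483), both near 0 in every library but the yellow region of Clark 8. It was 1.80 for Glyma.08G109400 (SE 0.221, adjusted p = 0.0434) and 1.54 for Glyma.11G073700 (SE 0.175, adjusted p = 0.0286), which were higher in black in Clark 8. Each lost its call under most alternatives: with the 18 or 19 settings that keep both lines, Glyma.03G074000 passed in 9, Glyma.10G002200 in 8, Glyma.11G073700 in 7, Glyma.02G002100 in 5 and Glyma.08G109400 in 4, and the direction held in each. Whether Glyma.10G002200 and Glyma.02G002100 share hits was not tested, so the 5 genes may not be separate measurements.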

How the results depend on the processing

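The count of 4266 genes called in Clark 8 was 11431 with the replicate block, 12756 with the block in the 6 Clark 8 libraries alone, 11409 with array weights and 12456 with voom and the block, and 1958 at a minimum of 5 RPKM, where fewer genes were tested. With the block over all 12 libraries the median difference over all tested genes stayed at -0.07, and the median SE went from 0.179 to 0.0980. The cause of the shifts other than that at 5 RPKM was not tested. Leaving out 1 library gave 2549 to 3481, with 2804 without black repeat 1, 2787 without black repeat 2 and 2549 without yellow repeat 2. Without repeat 3 it was 4352, of which 3210 were among the 4266. Higher calls were 54.2% of the 4266, 43.0% with the block, 43.4% with array weights, 39.3% with voom and the block, 63.2% with median-of-ratios scaling and up to 64.3% with 1 library left out. Of 376 values of the 18 named genes under the alternatives, 365 stayed on their side of the threshold, and 11 newly passed, all for AGO5 (adjusted p 0.000166 to 0.262 over all settings) or Glyma.09G075200 (0.00061 to 0.196); the block changed no other call among them. The chalcone synthase members called higher were 11 to 13, and both sums passed throughout. The difference between the longest and shortest coding classes ran from -0.36 to -0.15. Voom, the scaling to 1 model per gene and the settings of the interaction, length and fold-size results were added after the data were examined. Depth limits genes near 0.1 RPKM, where 15 to 66 hits stood behind a yellow value in the chromosome 16 stretch.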
